A study of Mus musculus with 6 samples.

Results

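The genes described here encode the receptors of the Notch pathway, their Delta-like and Jagged ligands, and the Fringe enzymes that modify the receptors. They were chosen by name: Notch1, Notch2, Notch3, Dll1, Dll3, Jag1, Jag2, Lfng, Mfng and Rfng. Of these 10 genes, 9 have a row among the 12316 gene rows of the table, and Jag2 was not analysed here. The related genes Notch4 and Dll4 have no row of their own and were not analysed here either.

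Poly(A) RNA was sequenced from neural stem cells of CD-1 mouse embryos at E14.5, obtained commercially and grown as a monolayer on laminin with EGF and bFGF. All cells carried a lentiviral short hairpin RNA (shRNA) and were selected with puromycin at 0.5 µg/mL. Per the labels, 2 libraries carried the scrambled hairpin SHC002, 2 carried the Sox4 hairpin TRCN0000012078 and 2 carried the Sox4 hairpin TRCN0000012080, and the libraries of a group came from different passages. The design asks which genes differ when the SoxC transcription factor Sox4 is targeted.

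The values are those of the authors' own Cuffdiff comparison, which sets a second condition against a first, with 1 level per gene in each, and does not name them. It does not say which hairpins entered each condition, and none was assigned here from the values. Directions below compare the second condition with the first. Called means flagged by the authors, that is at a q-value (a p-value adjusted over all their tests) under 0.05. "Rose" and "fell" are used only of called genes. The header names no unit; levels are taken as FPKM, fragments scaled to transcript length and library size, which Cuffdiff writes in such columns. There is no value per library, so no standard deviation, n or interval can be given and the depth is unknown. In the authors' deposited table Sox4 itself stood at 126.8 FPKM first and 83.9 FPKM second and, with a Cuffdiff q of 0.0543, was not called. Of the cell type markers, 9 of 10 neural stem cell genes had a row, all above 10 FPKM in both conditions in the authors' deposited table. Of these 9, Nes and Sox1 rose, Fabp7 fell and 6 were not called. None of 8 endothelial and none of 7 microglial markers had a row. Of 8 mural cell and fibroblast markers only Acta2 had one, and it rose from 29.4 to 55.8 FPKM in the authors' deposited table (q = 0.00304).

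Notch signalling passes between touching cells. A ligand on one cell binds a receptor on its neighbour, the receptor is cut first at the cell surface and then inside the membrane by gamma-secretase, and the freed intracellular part moves to the nucleus and joins the DNA-binding protein RBPJ. In the embryonic brain this induces Hes and Hey repressors, which hold back neuronal differentiation and keep neighbouring cells in a progenitor state. Fringe enzymes lengthen fucose sugars on the receptor and so shift its response between Delta-like and Jagged ligands. Dll3 differs from the other ligands: it is known mainly to act on receptors within its own cell and not to activate those of neighbours.

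Promoter windows were taken from RefSeq, on GRCm38.p6, from 250 bases before to 50 bases after the annotated start of transcription. They were found for 9 of the 10 genes, Jag2 among them, in 10 windows. The windows were searched on both strands for the core letters of the RBPJ site, TGGGAA, and of the site bound by SOX factors, ACAAAG, which do not overlap each other. Other forms of either site were not searched. The RBPJ core was in 1 of these 9 genes, Lfng, and in 25.6% of all 32851 windows. The SOX core was in 2 of the 9 genes, Lfng and Dll1, that is in 20.0% of their 10 windows, and in 18.7% of all windows. The matches are shown because they are all that the windows of these genes hold, with 12 bases on either side and the core in capitals, 5′ to 3′ on the strand of the gene.
Lfng, RBPJ core at -135, chr5:140607194-140607223, plus strand: ccagctgggtggTTCCCAgccccttgtccg
Lfng, RBPJ core at -108, chr5:140607221-140607250, plus strand: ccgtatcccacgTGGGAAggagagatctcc
Lfng, SOX core at -174, chr5:140607155-140607184, plus strand: acaggctcgtgcACAAAGggggcgggtgcc
Dll1, SOX core at -121, chr17:15377036-15377065, minus strand: acagctgagcgcACAAAGagccactgattc
Positions give the first capital letter, counted from the start of transcription. The first RBPJ match of Lfng reads on the opposite strand. The windows of Notch1 and Dll3, the genes called below, hold neither core, which says only that these letters are not in these windows.

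Of the 9 genes, 1 rose, 1 fell and 7 were not called. The receptor gene Notch1 rose and the ligand gene Dll3 fell. Over all rows, 3.17% rose, 1.83% fell and 4.99% were called in either direction. The median log2 fold of the 9 genes was 0.10, against 0.0033 over all rows. All 9 stood above 1 FPKM in both conditions, from 2.55 for Mfng to 145.8 for Lfng, both of them second-condition values of the authors' deposited table. An unadjusted Cuffdiff p under 0.05 was reached by 4 of them, Notch1, Notch2, Notch3 and Dll3, as it was by 17.5% of all rows.

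**Figure D1:**
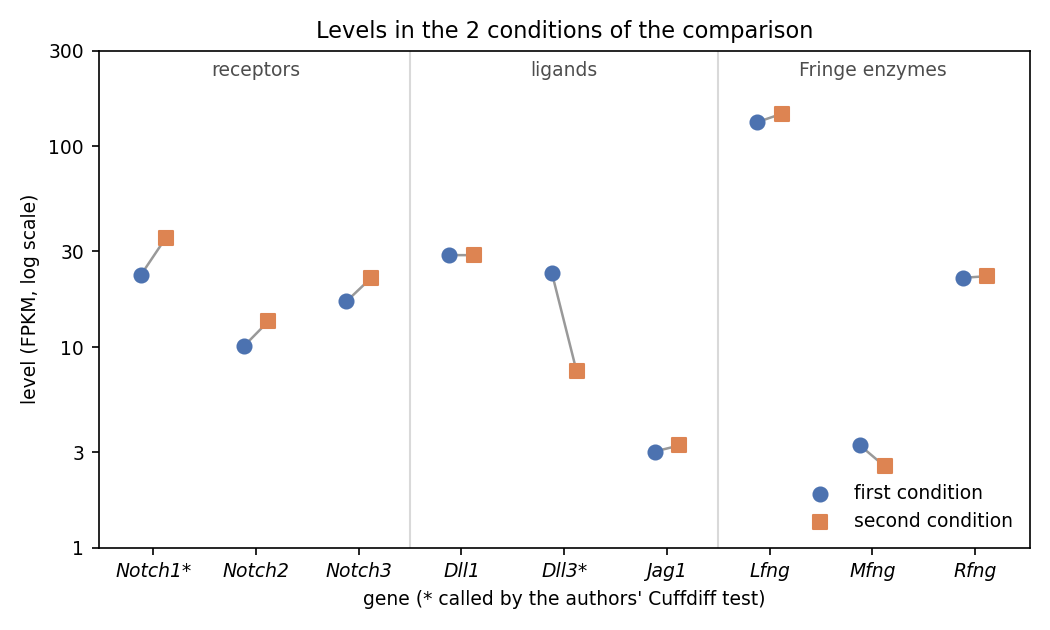
Level of each gene (FPKM, log scale) in the first condition (circles) and in the second (squares), grouped by role, with 1 value per condition and no error available. Dll3 drops from 23.4 to 7.61 and Notch1 climbs from 22.9 to 35.0, while Dll1, Jag1, Lfng and Rfng lie almost level.

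Dll3 (ENSMUSG00000003436.11, chromosome 7, 28293553 to 28302238, minus strand, GRCm38) had the largest change among the 9 genes. In the authors' deposited table it stood at 23.4 FPKM in the first and 7.61 FPKM in the second condition. This is a 3.08-fold fall, and the authors' deposited table gives it a log2 fold of -1.62 and a Cuffdiff q of 0.00304. Its unadjusted p of 5e-05 is the lowest in the table, a value shared by 230 rows. Ranked by log2 fold, Dll3 was the 28th of the 225 genes that fell. In the first condition 67.9% of rows had a lower level than Dll3, and in the second 36.4% did.

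Dll1, the Delta-like ligand that activates Notch on neighbouring progenitors (ENSMUSG00000014773.13, chromosome 17, 15367354 to 15376872, minus strand), has levels of 28.8 and 28.7 FPKM in the authors' deposited table. The log2 fold of Dll1 there is -0.00089 (q = 0.998), the smallest change among the 9 genes. Dll1 exons overlap those of A930024N18Rik on the other strand. Jag1, the Jagged ligand with a row (ENSMUSG00000027276.7, chromosome 2, 137081456 to 137116644, minus strand), has levels of 3.02 and 3.24 FPKM in the authors' deposited table. There its log2 fold is 0.10 (q = 0.903). Of the 3 Delta-like and Jagged ligands with a row, Jag1 was thus the least abundant in both conditions. It was 9.52-fold below Dll1 in the first and 8.88-fold below it in the second. The fall among ligand genes was that of Dll3: Dll1 exceeded Dll3 by 1.23-fold in the first condition and by 3.78-fold in the second. The difference between the changes of the 2 genes was not tested.

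Dll3 is known to be expressed by progenitors of neurons and of oligodendrocytes, and markers of several lineages are given here beside it. Of 8 neuron markers 6 had a row, of which Elavl4 fell, from 4.24 to 2.13 FPKM in the authors' deposited table (q = 0.00892), and 0 rose. The summed level of these 6 went from 135.5 to 136.9 FPKM. Most of it was Map2, at 122.1 and 127.4 FPKM in the authors' deposited table. Of the 6, 4 had a positive log2 fold and 2, Elavl4 and Tubb3, a negative one. Tubb3, which was not called, went from 6.75 to 3.90 FPKM in the authors' deposited table (log2 fold -0.79, Cuffdiff q of 0.0996). Among the positive ones Map2 had a log2 fold of 0.06. The others had low levels there, Rbfox3 at 0.605 and 0.979, Snap25 at 0.706 and 1.19 and Syt1 at 1.11 and 1.28 FPKM. Dcx and Stmn2 were not analysed here. Of 7 oligodendrocyte lineage markers 4 had a row, and 1 fell. It was named after its values were seen: Gpr17, a receptor of oligodendrocyte precursors, went from 22.7 to 8.90 FPKM in the authors' deposited table. The precursor markers Pdgfra, Cspg4 and Olig1 were not called, and Sox10, Mbp and Mog were not analysed here. The summed level of the 4 markers went from 1028 to 881.7 FPKM. Olig1 made up most of it, at 937.2 and 809.9 FPKM in the authors' deposited table. Of 7 astrocyte markers 4 fell and 0 rose, where 1.83% of all rows fell and 3.17% rose. The falls were Gfap, Agt, Aqp4 and Slc1a2, with log2 folds from -2.55 for Gfap to -1.16 for Slc1a2 in the authors' deposited table. All 7 had a negative log2 fold, with a median of -1.16. The summed level of the 7 went from 1339 to 920.3 FPKM. Aldoc, which was not called, made up most of it, at 1101 and 796.0 FPKM in the authors' deposited table. The part of these lineages in the Dll3 result was not tested. In RNA from whole cultures, fewer cells of a type and less RNA per cell cannot be told apart.

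The 3 receptor genes all had a positive log2 fold, and 1 of them was called. Notch1 (ENSMUSG00000026923.15, chromosome 2, 26457903 to 26516663, minus strand), the main receptor of embryonic neural progenitors, has levels of 22.9 and 35.0 FPKM in the authors' deposited table. This is a 1.52-fold rise, for which the authors' deposited table gives a log2 fold of 0.61 and a Cuffdiff q of 0.0162. It is a small change among called genes: Notch1 ranked 359th of the 390 genes that rose. Among markers of neural stem cells, Nes went from 98.1 to 169.8 FPKM and Sox1 from 10.8 to 20.3 FPKM in the authors' deposited table, both rises (q = 0.00304), while Fabp7 fell from 4620 to 2286 FPKM. The summed level of the 9 stem cell markers went from 6150 to 3964 FPKM, but Fabp7 made up most of it in both conditions. Of these 9 markers, 5 had a positive log2 fold and 4 a negative one. Their part in the Notch1 result was not tested. Exons of Notch1 overlap those of 0610009E02Rik and Gm13568 on the other strand.

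Notch2 (ENSMUSG00000027878.11, chromosome 3, 98013527 to 98150361, plus strand) has levels of 10.1 and 13.5 FPKM in the authors' deposited table, where its log2 fold of 0.42 had a Cuffdiff p of 0.0214 and q of 0.197. Notch3 (ENSMUSG00000038146.8, chromosome 17, 32120820 to 32166852, minus strand), in the body also a receptor of mural cells, has levels of 16.9 and 22.1 FPKM in the authors' deposited table, where its log2 fold of 0.39 had a Cuffdiff p of 0.0306 and q of 0.238. Neither was called. The mural and fibroblast marker with a row, Acta2, rose, as given above, and Pdgfrb and Rgs5 were not analysed here. Its part in the Notch3 value was not tested. Exons of Notch2 overlap Gm42820 on the same strand and those of Notch3 overlap Gm17276 on the other strand, and no source used here says whether the authors counted by strand.

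The order of the receptors was Notch1, Notch3, Notch2 in both conditions. Notch1 exceeded Notch2 by 2.27-fold in the first condition and by 2.60-fold in the second, and Notch3 exceeded Notch2 by 1.68-fold and 1.64-fold. Without values per library it cannot be said whether neighbours in this order differ beyond their spread.

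The 3 Fringe genes covered the widest range of levels, and 0 of 3 were called. Lfng (ENSMUSG00000029570.5, chromosome 5, 140607320 to 140615545, plus strand) was the most abundant of the 9 genes, at 132.3 and 145.8 FPKM in the authors' deposited table. It stood above 94.8% of all rows in the first condition and above 95.6% in the second. The authors' deposited table gives Lfng a log2 fold of 0.14 (q = 0.781). Rfng (ENSMUSG00000025158.7, chromosome 11, 120780746 to 120784207, minus strand) has levels of 22.1 and 22.6 FPKM and a log2 fold of 0.03 (q = 0.969) in the authors' deposited table. Mfng (ENSMUSG00000018169.12, chromosome 15, 78755882 to 78773475, minus strand) has levels of 3.24 and 2.55 FPKM and a log2 fold of -0.35 (q = 0.657) in the authors' deposited table. Lfng thus exceeded Rfng by 5.97-fold and 6.45-fold, and Mfng by 40.9-fold and 57.2-fold, in the first and second condition.

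Summed by role, the level of the 3 receptors went from 49.9 to 70.5 FPKM and that of the 3 ligands from 55.2 to 39.6 FPKM. The ratio of summed receptors to summed ligands went from 0.904 to 1.78. These sums leave out Jag2, and with 1 value per condition they have no test. Dll3 made up 42.4% of the ligand sum and then 19.2%, and Dll1 52.1% and then 72.6%. Set against Dll1 alone, the ratio of summed receptors went from 1.74 to 2.45. The receptor sum changed little in make-up, with Notch1 at 45.9% and 49.6%, Notch3 at 33.9% and 31.4% and Notch2 at 20.2% and 19.1%. Lfng held 83.9% and 85.3% of the Fringe sum, which went from 157.7 to 170.9 FPKM.

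**Figure D2:**
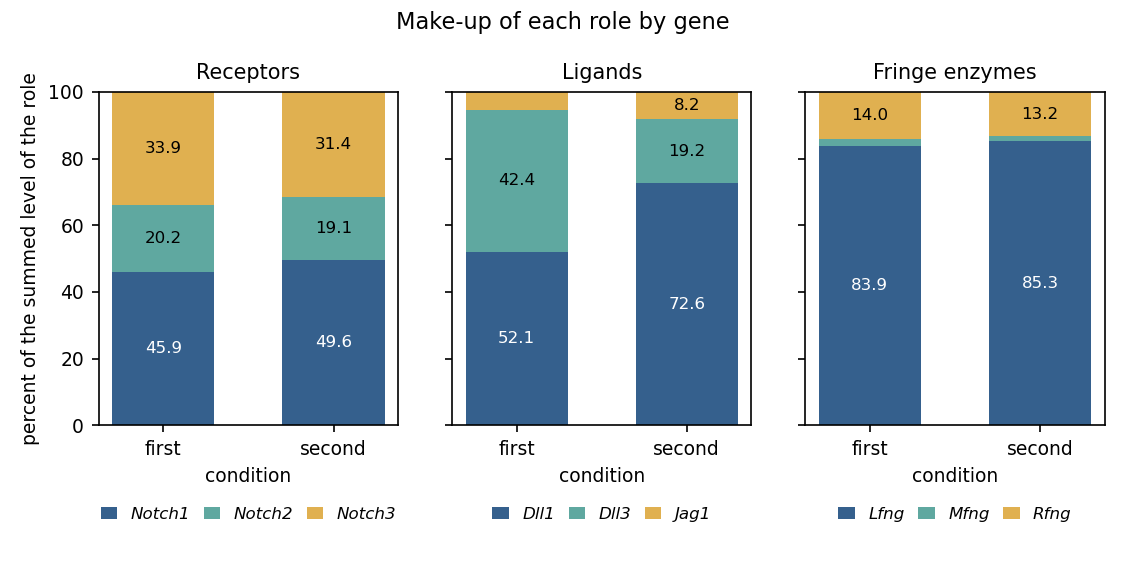
Share of each gene in the summed level of its role (percent of FPKM), in the first and second condition, with Jag2 left out. The share of Dll3 among ligands goes from 42.4% to 19.2%, while the make-up of receptors and Fringe enzymes shifts by less than 4 percentage points.

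Transcript length moved with the direction of calls in this table, and the receptors are long. In GENCODE release M21, which may not be what the authors used, the longest coding transcripts of Notch1, Notch2 and Notch3 measure 9488, 10500 and 8016 nt. All 3 belong to the longest 10% of transcripts, those of at least 6876 nt. There 13.8% of 1149 genes rose and 1.04% fell, and the median log2 fold was 0.23. A log2 fold below that of Notch1 was found in 84.7% of these genes, below that of Notch2 in 70.1% and below that of Notch3 in 66.1%. With a smoothed length trend taken off, the log2 fold was 0.35 for Notch1, 0.12 for Notch2 and 0.18 for Notch3. With the median in place of the longest transcript length, a choice made after the data were seen, it was 0.47 for Notch1, 0.025 for Notch2 and 0.28 for Notch3. The part of length in the receptor values was not tested further.

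Dll3 did not share this feature. Its transcript measures 2618 nt, and among the 5008 genes within 1.5-fold of that length the median log2 fold was -0.03 and 2.10% fell. Of these genes 10 had a lower log2 fold than Dll3, whose value was -1.58 with the trend taken off. The Fringe transcripts, from 1865 nt for Mfng to 2305 nt for Lfng, and that of Dll1, 3581 nt, are also of middle or short length. With the trend taken off, the log2 folds of these 4 genes ran from -0.27 for Mfng to 0.20 for Lfng. Jag1, at 5612 nt, had a log2 fold of -0.0081 with the trend taken off, and of -0.074 with median transcript length.

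**Figure D3:**
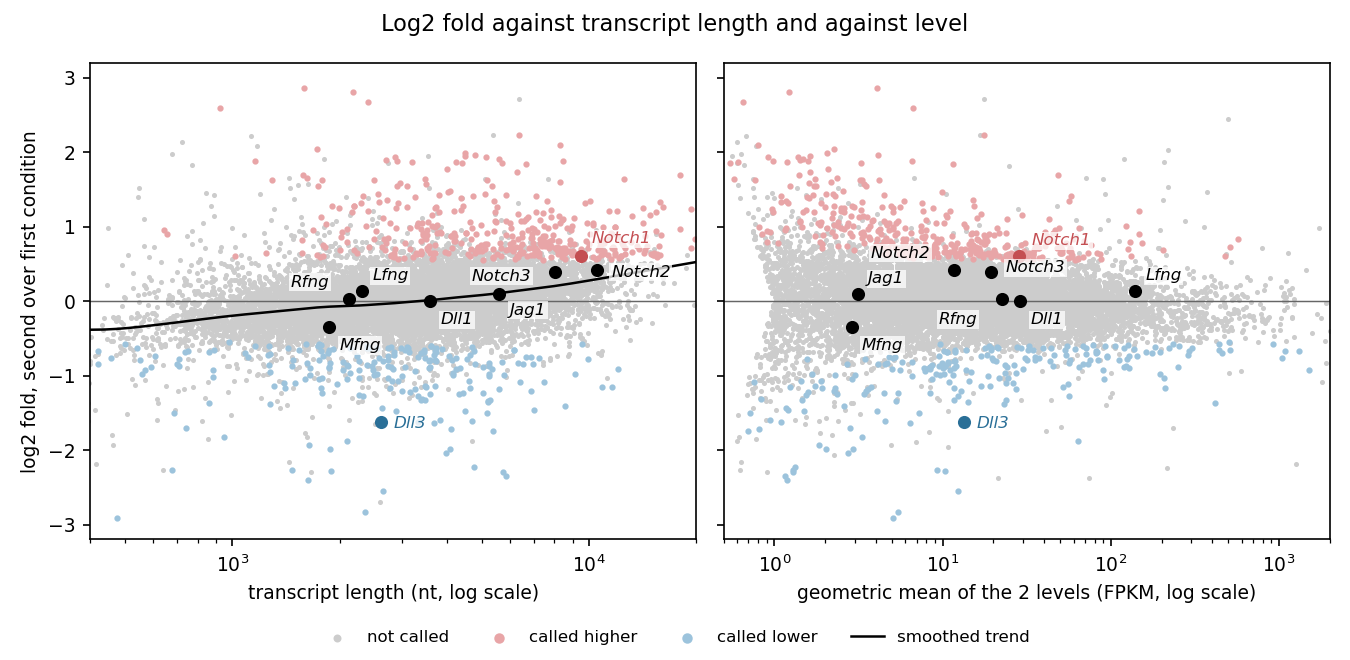
Log2 fold of the second over the first condition against transcript length (left, nt) and against the geometric mean of both levels (right, FPKM), both on log axes, for rows at 1 FPKM or more in the higher condition, and rows beyond the axes are not drawn. Notch1, Notch2 and Notch3 lie at the long end, where the smoothed trend (line) is above 0, and Dll3 lies far below the trend at a middle length.

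The smallest changes that the authors' test called bear on what can be read from the 7 genes not called. Among rows whose level lay within 2-fold of a given gene, the smallest rise called was 1.48-fold for the level of Notch2 and 1.47-fold for that of Notch3, and their own ratios were 1.33 and 1.31. Near the level of Jag1 and of Mfng, the smallest called rise was 1.53-fold and the smallest called fall 1.67-fold. The smallest rise called near the level of Lfng was 1.49-fold and near those of Dll1 and Rfng 1.47-fold. Changes smaller than these were not called at such levels in this table, so a gene that was not called is not shown to be equal in both conditions. Nor were all larger changes called. Tle1, at 17.6 and 11.1 FPKM in the authors' deposited table, was 1.58-fold lower in the second condition and not called (Cuffdiff q of 0.195).

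The neighbours of these genes on the chromosome mostly were not called. Within 50 kb of the 9 genes, 19 other genes had a row. Of these 1 was called, where 4.99% of all rows were. This gene, Fasn, encodes fatty acid synthase and lies near Rfng, and it rose from 108.0 to 202.0 FPKM in the authors' deposited table. The 6 genes near Dll3, which include Supt5 and Timm50, and the 2 near Notch1, Inpp5e and Sec16a, were not called.

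Other genes of the pathway were taken from lists chosen by role. Of 63 such genes 57 had a row, and of these 3 rose, 2 fell and 52 were not called, with a median log2 fold of 0.08. Over all rows 3.17% rose and 1.83% fell, the shares to set beside these counts and those of each list below. With so few genes called, the counts are not read as a result about the pathway. The 3 that rose, Aak1, Crebbp and Spen, all belong to the longest 10% of transcripts, which holds 9 of the 57 genes.

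The enzymes that glycosylate or fold the receptor had 8 of 8 rows and 0 calls, with 8 positive log2 folds and a median of 0.26. Gxylt2, a xylosyltransferase, had the highest log2 fold in the authors' deposited table, 1.64 (0.420 and 1.30 FPKM, q = 0.0773), and the protease gene Furin the lowest, 0.08. Pofut1, which adds the fucose that Fringe enzymes extend, has levels of 14.6 and 20.0 FPKM (q = 0.154) in the authors' deposited table. Of the genes for receptor cleavage 8 had a row, and 1 fell. In the authors' deposited table this gene, Psenen, a small subunit of gamma-secretase, went from 163.1 to 95.5 FPKM (log2 fold -0.77, q = 0.00304). Its transcript of 708 nt is in the shortest 10%, its log2 fold was -0.49 with the length trend taken off, and its exons overlap U2af1l4 and Gm49396 on the other strand. The other gamma-secretase genes and Adam10 and Adam17, which cut at the surface, were not called.

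The ubiquitin ligases that activate ligands had 4 rows and 0 calls, from a log2 fold of 0.03 for Mib1 to 0.51 for Neurl1b in the authors' deposited table. Among 13 genes of receptor trafficking and turnover 1 rose. In the authors' deposited table this gene, the endocytic kinase gene Aak1, went from 7.17 to 11.7 FPKM (q = 0.00528). Its log2 fold of 0.71 became 0.19 with the length trend taken off. The 4 non-canonical ligand genes with a row had 0 calls, from a log2 fold of -0.58 for Cntn6 to -0.32 for Dner among those at 1 FPKM or more in the authors' deposited table.

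Among 20 genes of the nuclear complex 2 rose and 1 fell. Rbpj, the DNA-binding partner of the receptors, has levels of 13.5 and 13.4 FPKM (q = 0.986) in the authors' deposited table. Crebbp, a histone acetyltransferase, rose from 8.61 to 14.7 FPKM (q = 0.00304) in the authors' deposited table. The corepressor gene Spen rose from 6.77 to 10.3 FPKM (q = 0.0494) in the authors' deposited table. With the length trend taken off, the log2 fold was 0.46 for Crebbp and 0.25 for Spen. Cir1, a corepressor that binds RBPJ, fell from 11.6 to 6.15 FPKM (q = 0.0151) in the authors' deposited table. Exons of Spen and Cir1 overlap genes on the other strand.

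Of 14 Notch target genes 13 had a row, of which 5 fell and 0 rose, where 1.83% of all rows fell and 3.17% rose. The list was chosen with earlier results of these data known, so its direction is not independent evidence. These falls were Hes5, Nrarp, Fabp7, Gfap and Id3, with log2 folds from -2.55 for Gfap to -0.72 for Id3 in the authors' deposited table. The other Hes and Hey genes with a row, Hes1, Hes6, Hes7, Hey1 and Hey2, were not called. Their log2 folds there ran from -0.90 for Hey2 (Cuffdiff q of 0.129) to -0.25 for Hes6 (Cuffdiff q of 0.596). Nrarp, a feedback inhibitor that binds the freed receptor, went from 48.7 to 28.6 FPKM (q = 0.00708) in the authors' deposited table. Of the 13, 0 belong to the longest 10% of transcripts, and 12 had a negative log2 fold, with a median of -0.60. In the shortest 10% of transcripts, which holds Fabp7, the median log2 fold of all genes was -0.23. In the next 10%, which holds Hes5 and Id3, it was -0.09. With the length trend taken off, the log2 fold was -2.51 for Gfap, -1.23 for Hes5 and -0.79 for Fabp7. It was -0.73 for Nrarp and -0.57 for Id3. Gfap is also among the astrocyte markers above, and Fabp7 among the neural stem cell markers. The difference between the target list and the receptor genes was not tested.

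**Figure D4:**
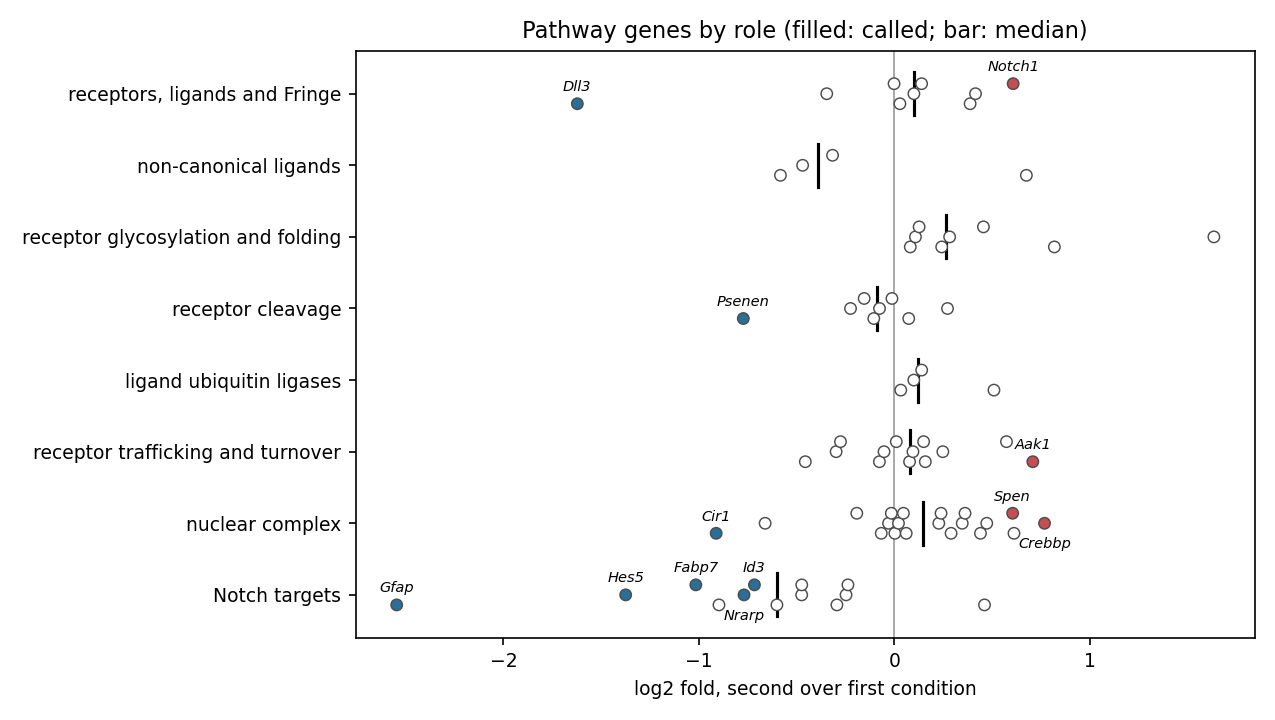
Log2 fold of the second over the first condition for each pathway gene with a row, by role, with called genes filled and named and the median of each list as a bar. Notch1, Aak1, Spen and Crebbp are the genes called higher, and Dll3, Psenen, Cir1 and 5 target genes those called lower.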

How the data were processed

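RNA-seq was analysed from 6 libraries in 3 groups of 2, numbered by passage. Per the submitters' processing notes the authors used TopHat2 2.0.9, Cufflinks 2.2.1, Cuffdiff and build mm10; no source used here gives their annotation or use of strand. The deposited table, per the file headers, gives each gene 2 levels, a log2 fold, a test statistic (a score), p-value and q-value, and the authors' flag. The header names no unit; the deposited levels are taken as FPKM because the layout is that of Cuffdiff. Passages are not stated to be separate cultures, so these p-values may measure technical spread.

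No test was refitted. The p-values did not follow the test statistic as a normal score (a median p of 0.0014 at statistics near 2, against 0.0461), so no standard error was derived. The members and lists were chosen with earlier results of these data known; 2 listed genes are not reported here and were left out of the lists. Named genes are Sox4, the 9 genes, and in each pathway list the called genes or, with none, the highest and lowest log2 fold at 1 FPKM or more; others are named to show a level or an overlap. Positions and lengths come from GENCODE M21 (GRCm38). Symbols of 11673 rows matched as written and 462 through an older name. The length trend was a lowess fit (span 0.3) over 11488 rows with 1 gene and a level of at least 1, 99.3% of those eligible, and was tested on simulated data. Python 3.11.15, pandas 2.3.3 and statsmodels 0.14.6 were used. Protein sequences were not used here.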

Additional observations from a re-analysis of the deposited data

How the results depend on the processing

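Dll3 was called under every alternative run. Members called higher were 0 at a q of 0.01, 0 when a log2 change of 1 or more was asked for as well and 3 at an unadjusted p under 0.05, against 1. Other pathway genes called higher went from 3 to 12 at the unadjusted p and 0 at the fold minimum. Those called lower went from 2 to 5, 1 and 0 at the unadjusted p, the stricter q and the fold minimum. Notch targets called lower went from 5 to 8 and 3, and those called higher from 0 to 1, at the unadjusted p and the fold minimum. Stricter or looser thresholds must move counts this way. Recomputed q-values left these counts within 1.5 times, but took the q of Sox4 from 0.0543 to 0.0463.

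With median in place of longest transcript length, chosen after the data were seen, the log2 fold less the trend became 0.025 for Notch2, 0.28 for Notch3, 0.024 for Dll1, -0.074 for Jag1 and 0.055 for Rfng. For Jag1 it was -0.0038 and -0.014 at spans of 0.1 and 0.6. Of 36 alternative log2 folds of the 9 genes, 0 reversed a call's sign and 7 moved by over 1.5 times, 6 of them with the length trend taken off. Jag1, which was not called, did change sign, from 0.10 to -0.0081 with the length trend taken off. Adding Notch4 and Dll4 to the sums was not run. No paired analysis was possible because each condition has a single pooled level, and replicates could not be left out in turn. The depth is unknown.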
